A study of Homo sapiens with 6 samples.

Results

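The enzymes that build, sulfate and trim chondroitin and heparan sulfate were followed in A375 melanoma cells after knockdown of ERK3, an atypical member of the MAP kinase family whose gene is MAPK6. The list holds 43 gene symbols, of which 41 were measured among 17687 genes. CHPF was chosen by its large rise in the same comparison of siERK3 with siCon arrays, and the other 42 were listed by enzyme function once that rise had been seen. The change of CHPF is therefore given as a description. Where CHPF is counted past the threshold, that is no evidence, because it was chosen by its rise. No count that includes it is independent evidence. Each measured member had 1 probe set. CHPF2 and NDST2 were not analysed here.

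A375 is an established human melanoma cell line. The knockdown cells (siERK3) received a predesigned commercial small interfering RNA (siRNA) against ERK3 and the control cells (siCon) a commercial negative control siRNA, both with the same transfection reagent. RNA was taken 3 days later and hybridised to Clariom S arrays, 3 per group. Whether the 3 replicates of a group came from separate cultures is not stated in the labels. The p-values therefore rest on array-to-array spread that may be purely technical. They describe no second siRNA sequence against ERK3, so effects of this reagent on other transcripts cannot be told apart from those of ERK3 loss.

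Glycosaminoglycans are long sugar chains attached to core proteins at the cell surface and in the matrix. Chondroitin and heparan sulfate share a linker that starts with xylose on a serine of the core protein. The chain then becomes chondroitin when N-acetylgalactosamine is added or heparan when N-acetylglucosamine is added. Sulfotransferases and epimerases modify the growing chain in the Golgi, and extracellular sulfatases can edit heparan sulfate afterwards. Sulfated chains bind growth factors and matrix proteins, and a chondroitin sulfate proteoglycan, CSPG4, is a long-known surface antigen of melanoma.

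All values are log2 signals as deposited, so a difference of 1 is a doubling if the scale is not stretched. Array medians lay between 7.06 and 7.10. On each array the 95th percentile of the 612 negative control probe sets was taken as the background level, which lay between 7.32 and 7.56. MAPK6 had values of 10.51 ± 0.18 in siERK3, against 13.54 ± 0.09 in siCon (SD, n = 3 each), an 8.18-fold lower signal (adjusted p = 0.000133 in limma). On the second principal component siERK3 3 (-15.2) and siCon 2 (-26.5) had negative scores, and the scores of the remaining 4 arrays were 4.35 to 21.7. The lineage factors MITF and SOX10 and the marker S100B were above background on all 6 arrays. PAX3, MLANA, PMEL, TYR and TYRP1 were below it on every array. Of 20 measured markers of leukocytes, endothelium, keratinocytes and fibroblasts, 17 were below background throughout. CD68, COL1A2 and LUM were the exceptions. LUM had separated groups and was called lower in siERK3 (difference -0.83, adjusted p = 0.0441 in limma). CD68 had separated groups and a lower mean of 12.05 in siERK3, against 12.51 in siCon (difference -0.47, adjusted p = 0.152 in limma). Their part in the results was not tested.

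CHPF had the largest difference of the pathway. It rose 4.28-fold, while the other 40 measured enzymes had differences between -0.43 and 0.76 on the log2 scale. Of those 40 enzymes, 1 was called higher in siERK3 (2.5%), the sulfatase SULF2, and 0 lower, in limma with Benjamini-Hochberg adjustment over all genes. The same test called 0.447% of all genes higher and 0.509% lower, 0.956% in all. By unadjusted p under 0.05, 4 of the 40 enzymes were higher and 2 lower, 15%, against 13.5% of all genes (6.98% higher and 6.5% lower). The siERK3 and siCon values did not overlap for 6 of the 40 (5 higher, 1 lower), 15%, against 19.8% of all genes (10.1% higher and 9.7% lower). The median difference of the 40 was 0.12, with 25 above 0 and 15 below, against a median of 0.00 over all genes, of which 8806 lay above 0 and 8881 below. Of the 40, 16 were below background on all 6 arrays. Of the 19 above it on all 6, 1 was called (5.26%, against 1.57% of all genes so detected). Groups were separated for 4 of the 19 (21.1%, against 29.5%), and 3 had an unadjusted p under 0.05 (15.8%, against 17.7%). The median of the 19 was 0.15, with 14 above 0 and 5 below. Over all 41 the median was 0.12, and 0.050 without siCon 2 and siERK3 3. In RNA from whole cultures, fewer cells that express a gene and less RNA per cell cannot be told apart.

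**Figure D1:**
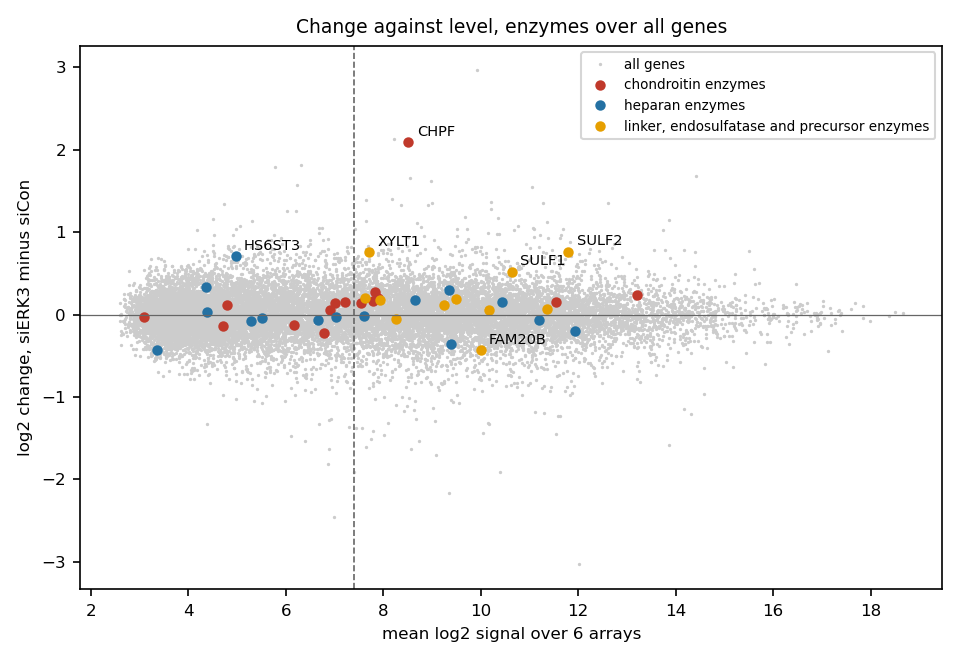
Log2 change (siERK3 minus siCon, vertical axis) against mean log2 signal over 6 arrays (horizontal axis) for all 17687 genes in grey and for the 41 measured enzymes in colour. The dashed line marks the mean background level. CHPF lies near 2.10, and the other 40 enzymes lie between -0.43 and 0.76.

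Detection was read from the negative controls. Above background on all 6 arrays were 19 enzymes (46.3%, against 43.7% of all genes), while 16 were below it on all 6 and 6 were mixed. At the 99th percentile of the negative controls 8 enzymes were above it on all 6 arrays. Detection was uneven along the pathway. All 6 linker enzymes, both sulfatases and all 3 precursor enzymes were above background on at least some arrays. Of the 10 measured heparan-modifying enzymes 7 were below it throughout, as were 7 of the 10 enzymes that sulfate or epimerise chondroitin. On siCon 1, which had the highest background level, 19 enzymes were above it, against 24 on siCon 2 and siCon 3. The number was 25 on each siERK3 array.

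**Figure D2:**
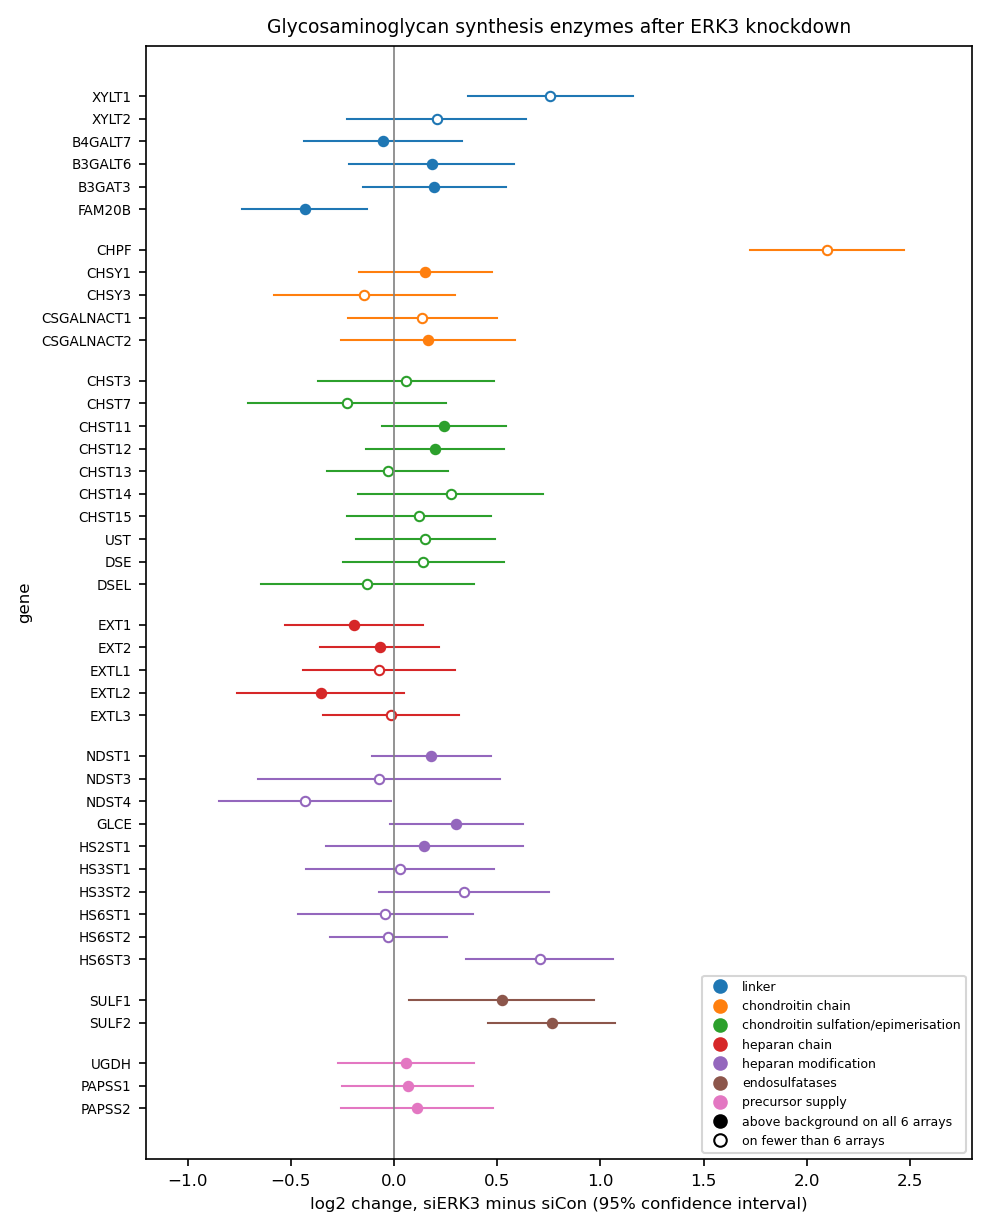
Log2 change (siERK3 minus siCon) with its 95% confidence interval for each of the 41 measured enzymes, coloured by role. Filled points are the 19 enzymes above background on all 6 arrays and open points the others. CHPF lies apart on the right, and SULF2, SULF1, XYLT1 and HS6ST3 are the other enzymes whose interval lies wholly above 0.

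Among the 6 linker enzymes none passed the test over all genes. XYLT1, a xylosyltransferase that starts the chains, had values of 8.40, 8.12 and 7.75 on the siERK3 arrays, against 7.29, 7.32 and 7.37 on the siCon arrays. The groups did not overlap, and the spread was wider in siERK3. All 3 siCon arrays were at or below background, which makes the signal at least 1.59-fold higher in siERK3 (difference 0.76, SE 0.18, adjusted p = 0.0968 in limma). XYLT2, the other xylosyltransferase, had a difference of 0.21 (SE 0.19). FAM20B, the kinase that phosphorylates the linker xylose, had values of 9.71, 9.79 and 9.84 in siERK3, against 10.07, 10.34 and 10.23 in siCon. FAM20B was the enzyme of the list with non-overlapping groups and a lower signal in siERK3 (difference -0.43, SE 0.13, adjusted p = 0.205 in limma). The enzymes that add galactose and glucuronic acid, B4GALT7, B3GALT6 and B3GAT3, had differences of -0.05, 0.18 and 0.19, with overlapping groups.

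The phosphate that FAM20B adds is removed by PXYLP1, a xylose phosphatase outside the list. PXYLP1 had values of 11.04, 11.07 and 10.70 in siERK3, against 10.04, 9.23 and 10.01 in siCon. Every siERK3 value exceeded every siCon value, and siCon 2 was the lowest of the 6. The difference of 1.17 (SE 0.23) narrowly missed the threshold (adjusted p = 0.0631 in limma). It was 1.03 without siCon 2 and siERK3 3 together, and FAM20B then had -0.40.

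The chondroitin chain is extended by a complex of CHSY1 or CHSY3 with CHPF, the chondroitin polymerising factor, and is begun by CSGALNACT1 and CSGALNACT2. CHPF had values of 9.25, 9.69 and 9.76 on the siERK3 arrays, against 7.49, 7.37 and 7.54 on the siCon arrays. All siERK3 values lay more than 1 log2 unit above all siCon values. The siCon values sat at the background level, above it on 2 of 3 arrays. On siCon 1 that level was 7.56, above the CHPF value of 7.49. The 4.28-fold ratio (difference 2.10, SE 0.16) therefore starts from a signal at background. The rise ranked 3 among all genes. It lay between 2.00 and 2.25 with any 1 array left out and was 1.96 without siCon 2 and siERK3 3.

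None of the 4 other measured enzymes of chondroitin chain growth passed the test. CHSY1, the chondroitin synthase above background on all 6 arrays, had values of 11.66, 11.65 and 11.58 in siERK3, against 11.46, 11.67 and 11.30 in siCon. Its groups overlapped (difference 0.15, 95% confidence interval -0.17 to 0.47). CSGALNACT1 and CSGALNACT2 had differences of 0.14 (interval -0.22 to 0.50) and 0.16 (interval -0.26 to 0.59). CHSY3 was below background on every array, at a mean of 4.64 in siERK3 and 4.78 in siCon.

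Promoter sequence was read for the 3 enzymes with the largest higher signal among those above background on all 3 siERK3 arrays, to show what lies before their starts. The sequences are the 250 bases before the 5′-most start of each gene in RefSeq (GRCh38.p14), written 5′ to 3′ on the gene's strand. CHPF is at chr2:219543810-219544059, XYLT1 at chr16:17470961-17471210 and SULF2 at chr20:47786628-47786877, all on the minus strand. RefSeq gives 2 starts for CHPF, 1 for XYLT1 and 4 for SULF2. Capitals mark matches on either strand to any of 5 motifs chosen after the CHPF promoter had been read. These were the cAMP response element TGACGTCA, the AP-1 site TGANTCA, the GC box GGGCGG, the E-box CACGTG and the ETS core CCGGAA.
CHPF: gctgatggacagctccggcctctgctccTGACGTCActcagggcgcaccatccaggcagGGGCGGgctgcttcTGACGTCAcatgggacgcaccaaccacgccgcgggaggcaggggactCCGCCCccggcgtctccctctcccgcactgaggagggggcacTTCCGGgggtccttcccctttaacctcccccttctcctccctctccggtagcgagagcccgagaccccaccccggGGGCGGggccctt
XYLT1: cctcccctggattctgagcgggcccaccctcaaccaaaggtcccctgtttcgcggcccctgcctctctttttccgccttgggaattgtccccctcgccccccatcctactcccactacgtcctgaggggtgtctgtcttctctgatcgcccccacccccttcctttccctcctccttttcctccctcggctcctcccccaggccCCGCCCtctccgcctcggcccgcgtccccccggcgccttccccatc
SULF2: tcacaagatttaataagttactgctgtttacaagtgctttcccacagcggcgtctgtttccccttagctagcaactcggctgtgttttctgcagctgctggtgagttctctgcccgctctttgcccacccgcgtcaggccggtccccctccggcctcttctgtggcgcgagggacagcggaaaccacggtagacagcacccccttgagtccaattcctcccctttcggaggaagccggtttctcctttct

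The CHPF window held 2 complete cAMP response elements, which start 222 and 177 bases before the start, 3 GC boxes and 1 ETS core. The XYLT1 window held 1 GC box, and the SULF2 window held 0 matches to the 5 motifs. Of 27305 RefSeq windows of this length, 478 (1.75%) held the cAMP response element and 16 (0.059%) held it at 2 or more places. Windows were found for 38 of the 43 listed enzymes, and 3 of these (7.89%) held it: CHPF, B3GAT3 and HS3ST2. The match in CHPF was known before the motif was chosen, so this share is not independent of it. Of the 14250 measured genes with a window, 331 held the element. B3GAT3 had a difference of 0.19 and HS3ST2, below background on every array, of 0.34, and neither passed the test. The GC box was in 32 of the 38 enzyme windows (84.2%), against 42.2% of all windows. The 27305 windows include genes not measured here, and the share among measured genes was not computed for this motif or those that follow. The ETS core was in 6 of the 38 (15.8%, against 14.8%), the AP-1 site in 3 (7.89%, against 6.57%) and the E-box in 3 (7.89%, against 6.46%). These matches are descriptions of sequence, and binding was not measured.

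The genes next to CHPF on its chromosome were read after their values were seen, and none passed the test. GMPPA, ASIC4, TMEM198 and OBSL1, the nearest genes with probe sets on either side, had differences of 0.12, 0.25, -0.03 and 0.14. The groups overlapped for each. OBSL1 had values of 8.71, 9.03 and 9.11 in siERK3, against 8.68, 8.96 and 8.81 in siCon. ASIC4 and TMEM198 were below background on every array.

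**Figure D3:**
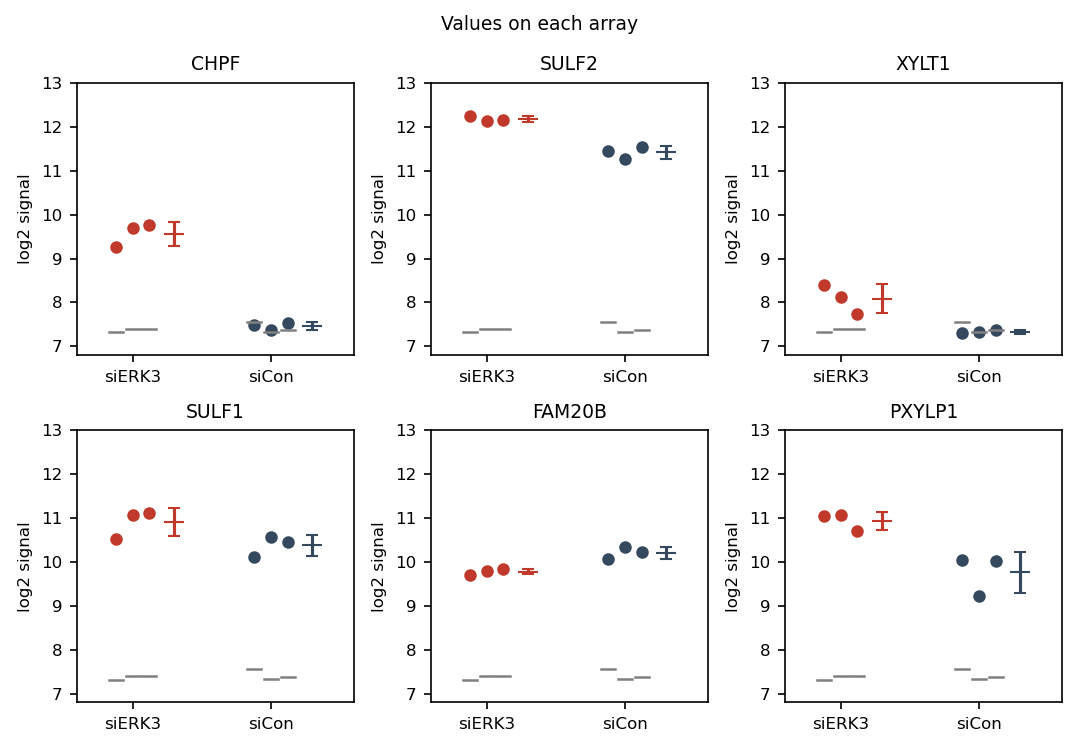
Log2 signal on each array for CHPF, SULF2, XYLT1, SULF1, FAM20B and PXYLP1, siERK3 left and siCon right, with replicates 1 to 3 from left to right and the mean ± SD (n = 3) beside them. Grey dashes give each array's background level. The groups do not overlap for 5 of these genes and overlap for SULF1, and CHPF and XYLT1 sit at background in siCon.

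None of the 10 enzymes that sulfate or epimerise chondroitin and dermatan chains passed the test, and their differences lay between -0.23 and 0.27. CHST11, a chondroitin 4-O-sulfotransferase, had values of 13.21, 13.44 and 13.33 in siERK3, against 13.17, 13.02 and 13.06 in siCon. The groups did not overlap, by a narrow margin between siERK3 1 and siCon 1 (difference 0.24, SE 0.13, adjusted p = 0.487 in limma). CHST12, a second 4-O-sulfotransferase above background throughout, had a difference of 0.20 (SE 0.15). CHST14, which sulfates dermatan chains, had a mean of 7.97 ± 0.07 in siERK3, against 7.69 ± 0.40 in siCon (SD, n = 3 each), a difference of 0.27. That value was 0.16 without siCon 1 or without siCon 2 and 0.50 without siCon 3. CHST3 and CHST7, which sulfate position 6, were below background on all arrays, with differences of 0.06 and -0.23. The other 5, CHST13, CHST15, UST and the epimerases DSE and DSEL, were below it too.

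The heparan chain is extended by the EXT1 and EXT2 complex. The 5 genes of the EXT family had differences between -0.36 and -0.02, with overlapping groups, and none passed the test. With 1 array left out the difference ran from -0.22 to 0.04 for EXTL1 and from -0.09 to 0.10 for EXTL3, so their sign turned. EXT1 had 11.95, 11.78 and 11.79 in siERK3, against 12.16, 11.80 and 12.13 in siCon (difference -0.19, SE 0.15). EXT2 had a difference of -0.07 (95% confidence interval -0.36 to 0.22). EXTL2, an N-acetylhexosaminyltransferase that can add to the linker, had 9.30, 9.17 and 9.20 in siERK3, against 9.83, 9.20 and 9.70 in siCon. In EXTL2 the siCon 2 value fell within the siERK3 range, and the difference of -0.36 (SE 0.18) did not pass (adjusted p = 0.443 in limma). It was -0.23 without siCon 1 and -0.54 without siCon 2. EXTL3, which starts heparan chains, had a difference of -0.02, and EXTL1 was below background.

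Heparan-modifying enzymes gave 0 calls among 10 measured, and at an unadjusted p under 0.05 in limma HS6ST3 was higher and NDST4 lower. NDST1, an N-deacetylase and N-sulfotransferase that begins modification, had values of 8.82, 8.69 and 8.69 in siERK3, against 8.47, 8.62 and 8.56 in siCon. Its groups were separated but the difference was small (0.18, SE 0.13, adjusted p = 0.610 in limma). GLCE, the glucuronic acid epimerase, had a difference of 0.30 (SE 0.14) and HS2ST1, the 2-O-sulfotransferase, of 0.15 (SE 0.21). The largest difference was that of HS6ST3, a 6-O-sulfotransferase, with 5.53, 5.22 and 5.23 in siERK3, against 4.63, 4.80 and 4.43 in siCon. HS6ST3 was below background on all 6 arrays, so no fold is given (difference 0.71, SE 0.16, adjusted p = 0.0850 in limma). The other 6-O-sulfotransferases, HS6ST1 and HS6ST2, had differences of -0.04 and -0.03 and were below background, as were NDST3, NDST4, HS3ST1 and HS3ST2.

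SULF1 and SULF2 remove 6-O-sulfate from heparan sulfate outside the cell. SULF2 had values of 12.25, 12.14 and 12.15 in siERK3, against 11.46, 11.26 and 11.54 in siCon. The groups were clear of each other and far above background. SULF2 rose 1.70-fold (difference 0.76, SE 0.13, adjusted p = 0.0437 in limma). That call was lost when any 1 of the 6 arrays was left out (adjusted p from 0.102 to 0.171, differences from 0.68 to 0.82). Without siCon 2 and siERK3 3 the difference was 0.70 (adjusted p = 0.227 in limma).

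SULF1 had values of 10.53, 11.07 and 11.11 in siERK3, against 10.12, 10.58 and 10.45 in siCon. The siERK3 1 value lay below siCon 2, so the groups overlapped. Its difference of 0.52 (SE 0.20) did not pass (adjusted p = 0.297 in limma). The sign was that of SULF2.

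None of the 3 precursor enzymes passed the test. UGDH, which makes UDP-glucuronic acid, had a difference of 0.06 (SE 0.15). PAPSS1 and PAPSS2, which make the sulfate donor PAPS, had differences of 0.07 (SE 0.14) and 0.11 (SE 0.16). For PAPSS2 the siERK3 2 value of 9.61 stood above the other 5 arrays, which lay between 9.12 and 9.23, and without it the difference was -0.045.

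Of 60 measured genes around the pathway (67 listed), 0 passed the test over all genes in limma. By unadjusted p under 0.05, 9 of them were higher and 5 lower, 23.3%, against 13.5% of all genes. Their groups did not overlap for 19 (11 higher, 8 lower), 31.7%, against 19.8%. More of them were above background on all 6 arrays, 58.3%, against 43.7% of all genes. Among all genes above background on all 6 arrays, 17.7% had an unadjusted p under 0.05 and 29.5% had separated groups. Their median difference was 0.04.

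Among the listed core proteins of heparan and chondroitin sulfate none passed the test. Of 13 heparan sulfate core proteins 11 had differences above 0 and 2 below. An unadjusted p under 0.05 in limma was reached by 4 (3 higher, 1 lower), 30.8%, against 13.5% of all genes. That share was 17.7% among all genes above background on all 6 arrays. Below background on every array were 6 of the 13, among them COL18A1, which is counted in the 3 higher (difference 0.45, SE 0.17). SDC3, a syndecan, had values of 11.88, 11.97 and 12.06 in siERK3, against 11.15, 11.26 and 11.50 in siCon. SDC4, another syndecan, had 12.08, 12.24 and 12.20 in siERK3, against 12.85, 12.90 and 12.71 in siCon. Both pairs of groups were separated, in opposite directions, with differences of 0.66 (SE 0.14, adjusted p = 0.0795 in limma) for SDC3 and -0.64 (SE 0.13, adjusted p = 0.0680) for SDC4. SDC1 had a difference of 0.78 with overlapping groups (SE 0.26), and SDC2 of 0.27 (SE 0.13).

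Among 12 chondroitin sulfate core proteins 0 reached an unadjusted p under 0.05 in limma, against 13.5% of all genes, and the median difference was -0.01. Of the 12, 6 were below background on every array, where a fall could not be seen. Groups were separated for 1 (8.33%, against 19.8% of all genes), APLP2, which was lower in siERK3 (difference -0.17, SE 0.13). CSPG4 had values of 11.59, 11.73 and 11.87 in siERK3, against 11.91, 11.66 and 11.49 in siCon, with overlapping groups (95% confidence interval of the difference -0.31 to 0.39). CD44, a part-time carrier, had a difference of 0.06 (SE 0.14). The smallest p values were those of VCAN, the matrix proteoglycan versican (difference -0.39, SE 0.19), and PTPRZ1, a receptor phosphatase below background on every array (0.26, SE 0.19). VCAN had -0.22 without siERK3 3, and PTPRZ1 had 0.08 without siCon 2.

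**Figure D4:**
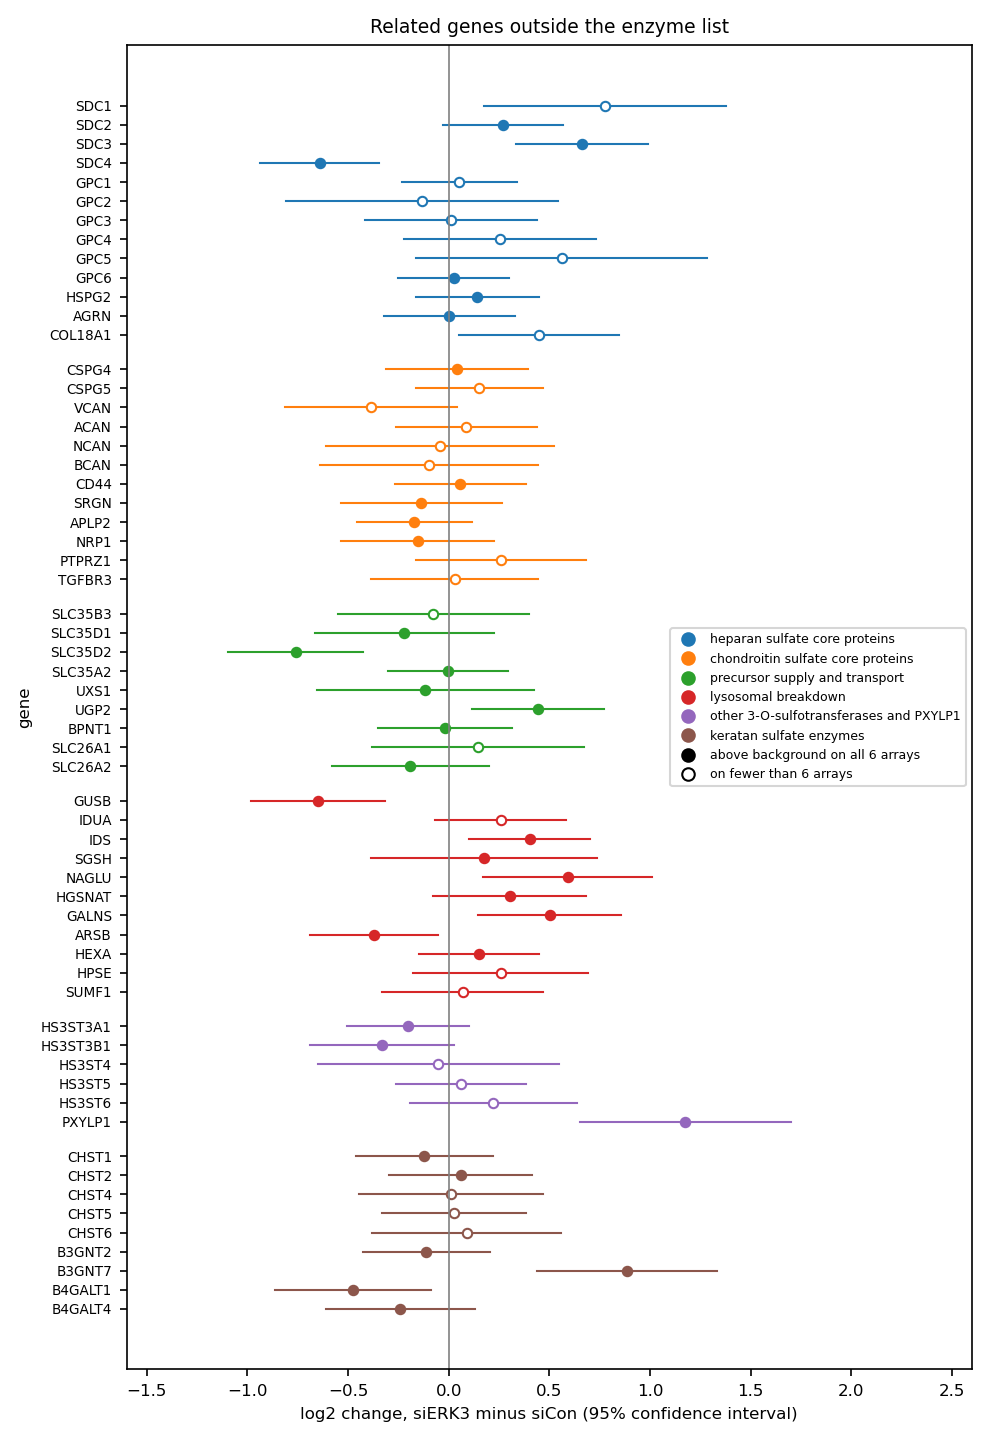
Log2 change (siERK3 minus siCon) with its 95% confidence interval for the 60 measured genes around the pathway, coloured by list. Filled points are genes above background on all 6 arrays. SDC3 and SDC4 lie on opposite sides of 0, and PXYLP1 has the largest value, at 1.17.

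In the remaining lists the differences also ran both ways. SLC35D2, a Golgi nucleotide sugar transporter, had values of 9.66, 9.54 and 9.63 in siERK3, against 10.33, 10.60 and 10.18 in siCon (difference -0.76, SE 0.15, adjusted p = 0.0606 in limma). UGP2, which makes the UDP-glucose that UGDH uses, had a difference of 0.45 (SE 0.14). Of 11 genes of chain breakdown, among them SUMF1, which activates sulfatases in the endoplasmic reticulum, 9 had differences above 0 and 2 below. The 2 below were GUSB, a glucuronidase (-0.65, SE 0.15), and ARSB, a sulfatase of chondroitin and dermatan chains (-0.37, SE 0.14). Among those above, NAGLU had a difference of 0.59 (SE 0.18), GALNS, another sulfatase, of 0.50 (SE 0.16) and IDS of 0.40 (SE 0.13). Groups were separated for 7 of the 11 (5 higher, 2 lower), 63.6%, against 19.8% of all genes. By unadjusted p under 0.05 in limma, 3 were higher and 2 lower, 45.5%, against 13.5%. Of the 11, 72.7% were above background on all 6 arrays, against 43.7% of all genes. Among all genes so detected, 29.5% had separated groups and 17.7% had an unadjusted p under 0.05 in limma. IDUA, among the 5 higher with separated groups, was below background on every array.

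Outside the listed 3-O-sulfotransferases, HS3ST3B1 had a difference of -0.33 (SE 0.16), and the closely related HS3ST3A1 of -0.20 (SE 0.13), both with separated groups. The difference of HS3ST3B1 was -0.21 without siERK3 3. Among 9 keratan sulfate enzymes B3GNT7, which extends that chain, had 9.92, 10.19 and 10.31 in siERK3, against 9.43, 8.85 and 9.48 in siCon. Its groups were separated (difference 0.89, SE 0.20, adjusted p = 0.0865 in limma). B4GALT1, a galactosyltransferase, had a difference of -0.47 (SE 0.17).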

How the data were processed

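The authors deposited 1 value per probe set and array for 24351 probe sets. The log2 unit was read from the deposited values. The sources used here do not say how signals were summarised, background-corrected and normalized. Between 1.46% and 1.61% of values lie above 16, more than a 16-bit scanner can record on a log2 scale; the zero point and any stretch are unknown.

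Probe sets were named through the platform annotation (17709 with 1 symbol, 0 with several). For 20 genes the brightest probe set was taken, which left 17687 genes, with no filter on low values. R 4.3.3 and limma 3.58.1 (lmFit and eBayes without covariates) gave the siERK3 minus siCon differences, Benjamini-Hochberg adjusted over all genes at 0.05. Scripts were tested on simulated data. The number of arrays limits precision. Where every array of a group was at or under the background level, the gene has only a bound in that group. Slide, scan date and detection calls were not analysed here.

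The members and lists were chosen with earlier results of these data known. By the naming rule, MAPK6, CHPF, called members and members with separated groups above background in at least 1 group are given per array, with the largest change of each role and the 2 smallest p of each related list. Any further gene was picked with its values in view. Alternatives were other normalizations, filters, variance models, array weights, a replicate block and arrays left out.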

Additional observations from a re-analysis of the deposited data

How the results depend on the processing

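Of the 2 enzymes past the threshold, CHPF was chosen for its rise, and SULF2 was past it also under quantile normalization, median subtraction, cyclic loess, averaging of probe sets per gene and array weights. XYLT1 was added among genes above the median level and with a mean-variance trend and robust eBayes, and HS6ST3 among genes above the 30th percentile. With the replicate block 33 genes were called, and the enzymes past the threshold numbered 1, the chosen CHPF. SULF2 then had an adjusted p of 0.132 in limma. Deviations from the group means correlated between same-numbered arrays at 0.05, -0.12 and -0.04, and not every array correlated best with its own number. With 3 arrays per group these values cannot show whether same-numbered arrays were handled together. With 1 array left out 1 enzyme was past the threshold in each fit, CHPF again, and all genes called numbered 23 to 60. Without siCon 2 and siERK3 3 together, an alternative added after seeing the data, 0 enzymes and 7 genes were called and the enzymes' median was 0.050, with 6 enzymes at an unadjusted p under 0.05 in limma. All genes called numbered 365 above the 30th percentile, 581 above the median and 722 with the trend, where fewer genes were tested or the variance model differed. Enzymes with separated groups numbered 8 to 14 with 1 array left out and 17 with those 2 arrays left out, where fewer arrays make separation easier. For these fits the share of all genes with separated groups or an unadjusted p under 0.05 was not computed. The counts of 8 to 14, 17 and 6 therefore show nothing particular to the enzymes. Enzymes above background numbered 8 at the 99th percentile. The change of PAPSS2 lay between -0.045 (without siERK3 2) and 0.191 with 1 array left out. PXYLP1 passed in 5 of 9 alternatives other than left-out arrays, and SDC3, SDC4, SLC35D2, GUSB and B3GNT7 in 3 of 9 each; the causes were not tested. A fall of enzymes at background could not be seen.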

Other observations

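Genes whose 250-base RefSeq window holds the cAMP response element TGACGTCA at 2 or more places were looked up after the CHPF promoter had been read. Besides CHPF itself, 9 were measured, and 0 passed the test over all genes in limma (1, VPS37B, had an unadjusted p under 0.05). They were AP2B1, ARG2, CGA, DDX10, DUSP8, EMC10, HECA, RALGAPA1 and VPS37B. Their differences (siERK3 minus siCon) lay between -0.50 for VPS37B and 0.23 for ARG2. Of 330 measured genes other than CHPF with at least 1 such element, 1 was called higher and 2 lower (0.909%, against 0.933% of the 14250 measured genes with a window).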
